A study of Homo sapiens with 9 samples.

Results

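KDM5C was lowered by RNA interference in PANC-1, an established line from a human pancreatic ductal carcinoma, and the transcripts of these cells were compared with those of control cells. The comparison takes 6 of the 9 libraries of the study, namely 3 labelled as KDM5C knockdown (siKDM5C) and 3 labelled as control, headed siNC in the files, which commonly stands for a non-targeting short interfering RNA (siRNA). All were harvested 48 hours after transfection, and the labels name no other treatment, allele or selection. The remaining 3 libraries received an siRNA against SIRT6, a nuclear deacylase (siSIRT6), and serve as another knockdown with which levels after siKDM5C were compared. Neither the siRNA sequences nor their number per gene are given in the sources used here. The labels do not state whether replicates come from separate cultures, and p-values therefore measure only a spread between samples that may be technical. Levels are FPKM, a fragment number divided by gene length and library size, given in the order of replicates 1, 2 and 3. A gene was tested if it reached 1 FPKM in at least 3 of the 6 libraries, which kept 15732 of 36753 genes. A log2 change is the difference of mean log2(FPKM + 1), siKDM5C minus control, tested with limma. It is smaller than the ratio of FPKM for low genes. "Rose" and "fell" are used where the adjusted p was under 0.05 over all 15732 genes.

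KDM5C is an X-linked enzyme that removes methyl groups from lysine 4 of histone H3, a mark of active promoters and enhancers, and it has been described both as a repressor of transcription and as a regulator of enhancer activity. The genes below fall into the interferon, sterol, S phase and secreted factor programs. In the interferon system, cytosolic sensors of foreign nucleic acid switch on interferon genes, and secreted interferons act through receptors, JAK kinases and STAT factors to induce a large set of antiviral genes. Sterol genes are driven by SREBP factors, which are held in the endoplasmic reticulum while cholesterol is plentiful, and S phase genes by E2F factors once the retinoblastoma proteins are phosphorylated.

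KDM5C (ENSG00000126012, chromosome X, 53191321 to 53225422, GRCh38) stood in the controls at 17.99, 18.4 and 18.8 FPKM and at 3.65, 3.31 and 3.88 FPKM after siKDM5C (log2 change -2.07, SE 0.07, adjusted p = 1.95e-05). The groups were far apart, with 19.7% of the control level left after siKDM5C. SIRT6 was at 6.196, 5.17 and 7.17 FPKM in the controls and 5.05, 4.601 and 5.39 FPKM after siKDM5C, with overlapping groups, and did not pass the test (log2 change -0.25, adjusted p = 0.122), although it did without control replicate 2 (log2 change -0.35, adjusted p = 0.0469). Of the KDM5C relatives, KDM5B fell from 6.805, 6.83 and 6.75 to 5.16, 5.46 and 5.07 FPKM (log2 change -0.33, adjusted p = 0.00557).

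The FPKM steps gave between 18201413 and 23270854 reads in genes per library. Of the 15732 genes, 44.7% changed, with 3553 rises (22.6%) and 3474 falls (22.1%), and the median of all genes was -0.019. The list counts below are to be read beside these shares. The median size of a called change was 0.49 on the log2 scale. The 3 siKDM5C libraries lay all above or all below the 3 controls for 56.2% of genes. The number of falls was 2163 without control replicate 1 and 2157 without control replicate 2. Against siSIRT6, 16135 genes were tested in a fit of all 9 libraries, with 21.3% higher and 18.6% lower after siKDM5C. That contrast shares its siKDM5C libraries with the first one. Transcripts of mitochondrial DNA took 8.76% ± 0.920 of reads in the controls and 6.29% ± 0.543 after siKDM5C (SD, n = 3), and the part of this in the other results was not tested. The groups were separated on the first principal component (67.9% of the variance). On the second (13.7%), control replicate 3 (-17.2) and siKDM5C replicate 1 (-16.3) lay at the low end and siKDM5C replicate 2 (19.4) at the high end, with the other 3 libraries between -1.99 and 9.35.

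The epithelial keratins KRT8, KRT18 and KRT19 and the mesenchymal filament gene VIM were at 138 FPKM or more in each of the 6 libraries, while CDH1, the epithelial cadherin, was below 1 FPKM, at 0.533, 0.63 and 0.608 FPKM in the controls and at 0.0862, 0.178 and 0.156 FPKM after siKDM5C. Of the 8 line markers, KRT8, KRT18, KRT7 and CDH2 fell and EPCAM and VIM rose (1 rise when any single library but siKDM5C replicate 1 was left out), and the 8 summed to between 1632 and 1806 FPKM in the controls and between 1440 and 1796 FPKM after siKDM5C. Leukocyte markers summed to between 43.5 and 57.7 FPKM in the controls and between 72.4 and 93.3 FPKM after siKDM5C. CD68, a lysosomal glycoprotein gene that carcinoma cells also express, made up most of this, 5 of the 7 leukocyte markers with a value stayed below 1 FPKM in each library, and CD163 was at 0. Endothelial markers, 7 of 7 below 1 FPKM, summed to at most 0.772 FPKM, and acinar and endocrine markers to at most 0.0883 FPKM, with CPA1 at 0. Fibroblast markers summed to between 16.2 and 18.3 FPKM, nearly all of it COL1A1, with 6 of 8 below 1 FPKM. In these bulk samples, fewer cells with a transcript and less transcript per cell cannot be told apart.

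**Figure D1:**
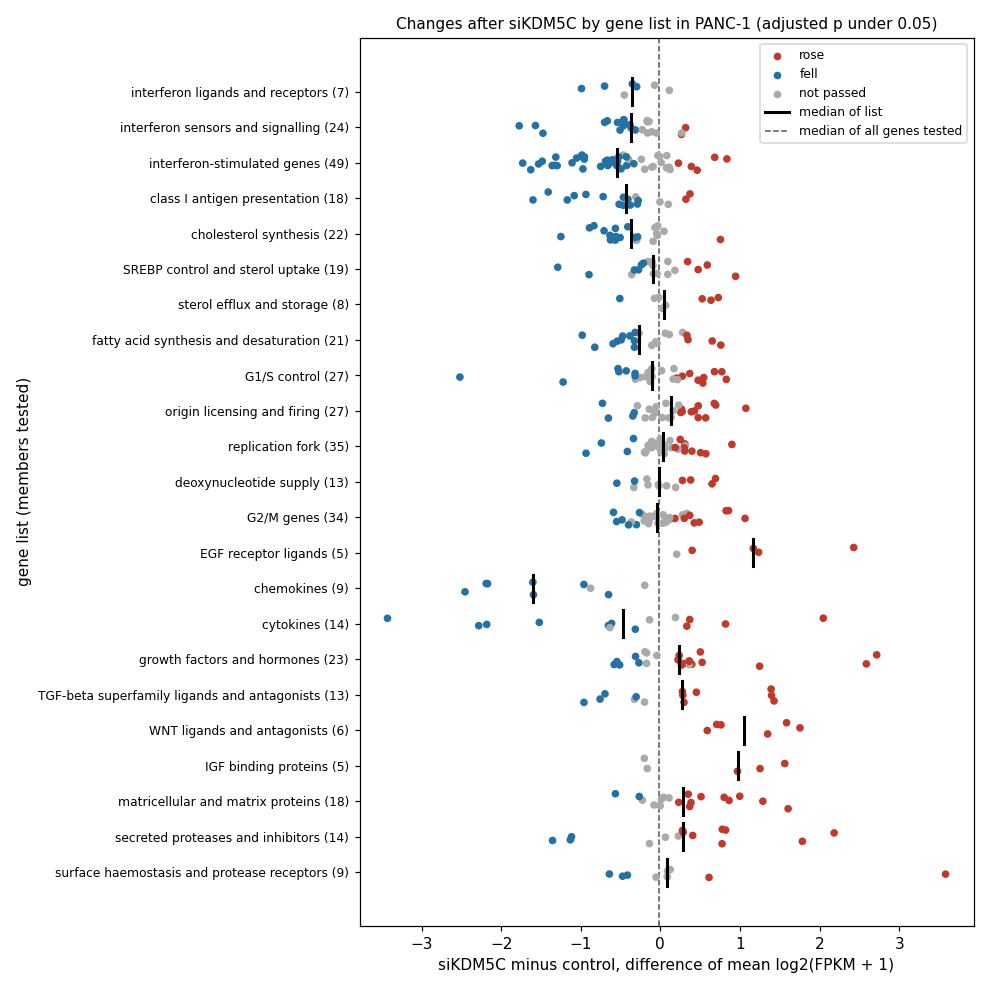
Log2 change after siKDM5C (x axis, difference of mean log2(FPKM + 1)) for each tested member of 23 gene lists (y axis, members tested in brackets); red points rose, blue points fell, grey points did not pass, black bars are list medians and the dashed line is the median of all genes. Interferon, class I presentation, cholesterol synthesis and chemokine lists lie left of the dashed line, WNT and EGF receptor ligand lists lie right of it, and S phase lists spread on both sides.

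Most of the interferon-stimulated genes tested, the antiviral genes at the end of the pathway, fell. Of 72 listed genes, 71 had a value and 49 were tested. Of these, 31 fell (63.3%, against 22.1% of all genes), 5 rose (10.2%, against 22.6%) and 13 did not pass, and the median log2 change was -0.54. Among the 49, BST2, XAF1, GBP4, APOL3 and RTP4 reached 1 FPKM in the controls alone and MX2 after siKDM5C alone, so that their inclusion depended on a difference. Of the 43 other genes, 26 fell and 4 rose. Against siSIRT6, 28 of the 49 were lower after siKDM5C and 5 were higher, while of all genes in that contrast 18.6% were lower and 21.3% higher.

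IFIT3, an inhibitor of viral translation with its relatives IFIT1 and IFIT2, is shown first with its promoter, because it had the largest fall of the list on the log2(FPKM + 1) scale. As a share of the control level, GBP4 (4.31%) and APOL3 (5.72%) had less left than IFIT3 (22.8%). GBP4 and APOL3 were tested through the controls alone. Their levels after siKDM5C, at most 0.105 and 0.197 FPKM, rest on few reads, so their shares are imprecise. Short windows upstream of the RefSeq start follow for IFIT3, IFIT1 and BST2, each on the coding strand, 5′ to 3′. Capitals mark GAAA followed after any 2 bases by a further GAAA, or the reverse complement of this pattern, the core of the interferon-stimulated response element bound by STAT and IRF factors.
IFIT3: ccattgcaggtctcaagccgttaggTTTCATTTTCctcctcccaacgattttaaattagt
IFIT1: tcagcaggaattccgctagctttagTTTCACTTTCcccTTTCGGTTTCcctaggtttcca
BST2: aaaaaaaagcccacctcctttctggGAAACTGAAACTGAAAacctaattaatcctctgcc

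The windows are chr10:89327816-89327875 (plus strand), chr10:89392482-89392541 (plus strand) and chr19:17405726-17405785 (minus strand) of GRCh38.p14. Searched on both strands in 300 bases (250 before to 50 after the start), the core was present in 18 of the 24 fallen genes whose promoter the RefSeq table held. It was present in 9 of 11 that did not pass, in 1 of 2 that rose and in 3.65% of all 27195 promoters. A match is a description of the letters and no evidence of binding. IFIT1 and BST2 lie outside the rule for named genes and were chosen for their promoters after their values were seen.

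IFIT3 (ENSG00000119917, chromosome 10, 89327894 to 89340971) stood at 9.65, 8.93 and 9.23 FPKM in the controls and at 1.73, 2.46 and 2.15 FPKM after siKDM5C (log2 change -1.73, SE 0.099, adjusted p = 7.97e-05). After siSIRT6 it was at 3.54, 4.22 and 3.76 FPKM, between the other groups, and the difference between the knockdowns was -0.64 (adjusted p = 0.00088). IFIT2, which binds foreign RNA, fell from 22.8, 22.4 and 20.5 to 6.07, 6.83 and 6.31 FPKM (log2 change -1.63, SE 0.073, adjusted p = 4.77e-05). For both genes each siKDM5C library lay below each control and each siSIRT6 library. IFIT1 fell from 6.92, 7.03 and 7.32 to 4.63, 4.84 and 4.27 FPKM, and was at 8.39, 8.44 and 8.46 FPKM after siSIRT6, above the controls.

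Guanylate-binding proteins are interferon-induced GTPases that attack intracellular pathogens. GBP3 fell from 6.98, 6.76 and 5.98 to 2.005, 2.095 and 2.03 FPKM (log2 change -1.31, adjusted p = 7.62e-05). GBP4 fell from 2.22, 2.13 and 2.12 to 0.0767, 0.0968 and 0.105 FPKM (log2 change -1.53, adjusted p = 5.31e-05), and was at 0.794, 0.683 and 0.756 FPKM after siSIRT6. Both were lower after siKDM5C than after siSIRT6, with a difference of -0.97 for GBP3 (adjusted p = 1.89e-05) and -0.67 for GBP4 (adjusted p = 0.000117).

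The apolipoprotein L family, some of whose members lyse parasites or act in cell death, fell in 3 of its 4 tested members. APOL3 reached 1 FPKM in the controls alone, so that its inclusion among these depended on a difference. Of the others, APOL6 and APOL1 fell and APOL2 did not pass. APOL6 went from 7.38, 7.73 and 6.904 to 2.24, 2.41 and 2.096 FPKM (log2 change -1.36, adjusted p = 6.82e-05). APOL3 went from 2.25, 1.89 and 2.27 to 0.115, 0.055 and 0.197 FPKM (log2 change -1.48, adjusted p = 0.000101). APOL1 went from 7.29, 6.55 and 6.802 to 2.86, 1.72 and 2.14 FPKM (log2 change -1.30, adjusted p = 0.000551), whereas APOL2 was at 11, 11.5 and 12.03 FPKM in the controls and 10.6, 10.8 and 12.8 FPKM after siKDM5C, with overlapping groups, and did not pass. APOL1 and APOL2 were chosen after their values were seen.

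Among ADP-ribosyltransferases induced by interferon, PARP14 fell from 15.6, 15.4 and 13.7 to 4.98, 5.64 and 5.31 FPKM (log2 change -1.33, adjusted p = 8.75e-05) and PARP12 from 8.01, 8.13 and 8.15 to 3.29, 3.62 and 3.89 FPKM (log2 change -0.99, adjusted p = 0.000173). PARP14 was also lower than after siSIRT6, where it stood at 10.3, 10.2 and 9.97 FPKM (difference -0.82, adjusted p = 3.42e-05). The groups did not overlap for either gene.

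The 5 genes that rose were TRIM5, SLFN5, MX2, ZNFX1 and SP110. TRIM5, a restriction factor that binds retroviral capsids, went from 9.22, 8.54 and 8.68 to 15.9, 18.2 and 15.5 FPKM (log2 change 0.84, adjusted p = 0.00046), above the 12.1, 11.8 and 11.7 FPKM after siSIRT6 (difference 0.45, adjusted p = 0.000962). SLFN5 went from 1.25, 1.62 and 1.32 to 2.91, 3.15 and 2.49 FPKM (log2 change 0.68, adjusted p = 0.00217). MX2, another inhibitor of retroviruses, went from 0.864, 0.961 and 0.85 to 1.65, 1.67 and 1.505 FPKM (log2 change 0.46, adjusted p = 0.00314). The count of rises was 3 without siKDM5C replicate 1 and 3 without siKDM5C replicate 2. ISG15, the most abundant listed gene after IFITM3 in the controls, had overlapping groups with 65.8, 66.04 and 51.3 FPKM in the controls and 36.2, 41.2 and 55.5 FPKM after siKDM5C, and did not pass (adjusted p = 0.067); ISG15, ZNFX1 and SP110 were named after their values were seen.

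**Figure D2:**
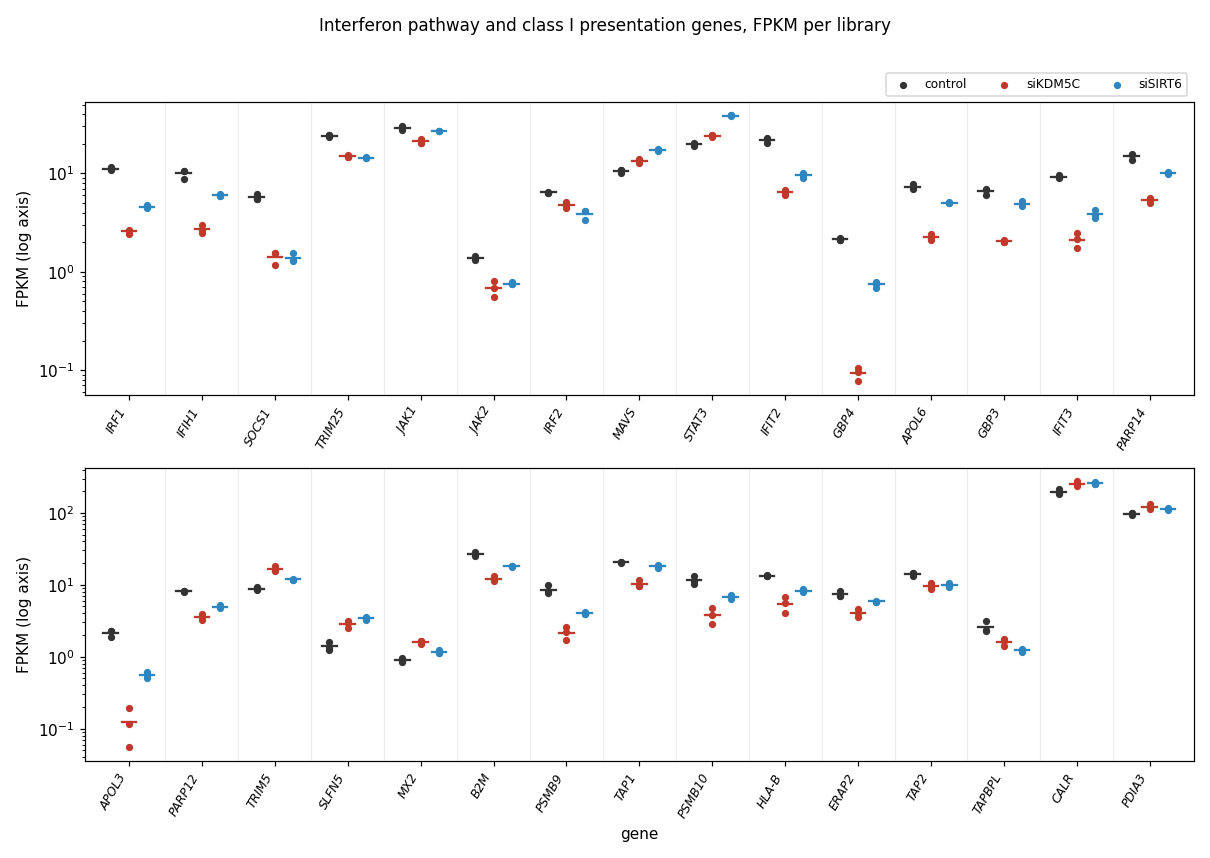
FPKM on a log axis for 30 genes of interferon signalling, interferon-stimulated genes and class I presentation (x axis); points are single libraries and bars are group means for control (black), siKDM5C (red) and siSIRT6 (blue). IRF1, IFIH1, IFIT2, IFIT3, GBP3 and B2M show siKDM5C lowest, siSIRT6 in between and control highest, while TRIM5 and MX2 show siKDM5C highest.

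Upstream of these genes, 24 sensors and signalling factors were tested of 30 listed, all with a value (median -0.37). Of these, 14 fell (58.3%, against 22.1% of all genes), 2 rose (8.33%, against 22.6%) and 8 did not pass. JAK2 reached 1 FPKM in the controls alone, and of the 23 other genes 13 fell and 2 rose. Against siSIRT6, 8 of the 24 were lower (against 18.6% of all genes) and 4 higher (against 21.3%). IFIH1 encodes the sensor of long double-stranded RNA, MDA5. It stood at 10.7, 10.7 and 8.84 FPKM in the controls and 2.46, 3.01 and 2.69 FPKM after siKDM5C (log2 change -1.57, SE 0.097, adjusted p = 0.0001), and at 5.94, 5.88 and 6.12 FPKM after siSIRT6. The siKDM5C libraries were the lowest of the 9 (difference from siSIRT6 -0.91, adjusted p = 7.45e-05).

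IRF1, a transcription factor of antiviral and class I genes (ENSG00000125347, chromosome 5, 132481609 to 132490798), fell from 11.7, 11.2 and 10.8 to 2.43, 2.59 and 2.68 FPKM (log2 change -1.77, SE 0.065, adjusted p = 2.52e-05). After siSIRT6 it was at 4.48, 4.55 and 4.78 FPKM, and the difference between the knockdowns was -0.65 (adjusted p = 4.29e-05). STAT2 and IRF9, which belong to the complex that binds the response element, were named after their values were seen. STAT2 was at 7.76, 8.79 and 8.39 FPKM in the controls and 7.9, 7.49 and 7.495 FPKM after siKDM5C and IRF9 at 3.28, 2.58 and 3.71 FPKM in the controls and 2.59, 2.63 and 3.13 FPKM after siKDM5C, in each case with overlapping groups and not past the threshold.

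The kinase gene JAK1 fell from 29.7, 30.3 and 27.4 to 20.5, 22.6 and 20.4 FPKM (log2 change -0.45, adjusted p = 0.00345) and JAK2 from 1.45, 1.39 and 1.33 to 0.556, 0.8 and 0.69 FPKM (log2 change -0.51, adjusted p = 0.00384). TRIM25, a ubiquitin ligase that activates the sensor RIG-I, fell from 24.8, 24.4 and 23.4 to 14.6, 15.3 and 14.8 FPKM (log2 change -0.67, adjusted p = 0.000364). SOCS1, a feedback inhibitor of JAK kinases, fell from 5.5, 5.51 and 6.17 to 1.17, 1.54 and 1.56 FPKM (log2 change -1.47, adjusted p = 0.000101). After siSIRT6 SOCS1 was at 1.28, 1.303 and 1.54 FPKM, and for neither SOCS1 nor TRIM25 did the difference between the knockdowns pass. IRF2, a factor that competes with IRF1, fell from 6.39, 6.35 and 6.51 to 5.12, 4.74 and 4.42 FPKM (log2 change -0.37, adjusted p = 0.00593) and was above its level after siSIRT6.

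The 2 genes that rose were STAT3, from 19.9, 20.4 and 19.1 to 23.2, 24.4 and 24.4 FPKM (log2 change 0.27, adjusted p = 0.012), and MAVS, the mitochondrial adaptor of the RNA sensors, from 10.1, 10.96 and 10.7 to 13.8, 12.7 and 13.9 FPKM (log2 change 0.32, adjusted p = 0.00991). Both calls were lost without control replicate 1 (adjusted p = 0.0532 for STAT3 and 0.0504 for MAVS). Both were lower than after siSIRT6, where STAT3 reached 38.2, 38.8 and 38.9 FPKM.

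Interferons themselves were low. IFNB1, named after its values were seen, was at 0 in all 6 libraries. IFNL1 was at 1.56, 1.28 and 2.14 FPKM in the controls and 0.676, 0.837 and 1.33 FPKM after siKDM5C and did not pass (adjusted p = 0.0631), although it did without siKDM5C replicate 3 (0.034). Of 13 listed ligands and receptors, 12 had a value and 7 were tested, of which 4 fell (57.1%, against 22.1% of all genes) and 3 did not pass (median -0.35). Falls numbered 2 without control replicate 1, control replicate 2 or siKDM5C replicate 1. The type I receptor chain IFNAR2 fell from 9.82, 9.72 and 8.83 to 4.76, 4.28 and 3.78 FPKM (log2 change -0.99, adjusted p = 0.000377). The interferon gamma receptor chain IFNGR1 fell from 9.81, 10.6 and 10.1 to 6.38, 6.34 and 5.02 FPKM (log2 change -0.70, adjusted p = 0.0017), and its partner IFNGR2 was at 12.9, 14.2 and 10.2 FPKM in the controls and 10.4, 10.8 and 14.1 FPKM after siKDM5C, with overlapping groups. IFNAR1 (adjusted p = 0.0279) and IL10RB (adjusted p = 0.0223) also fell, but each call was lost without control replicate 1, control replicate 2 or siKDM5C replicate 1, and that of IFNAR1 also without siKDM5C replicate 3, with adjusted p-values up to 0.0955 for IFNAR1 and 0.0866 for IL10RB.

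Class I molecules show peptides made by the proteasome to cytotoxic T cells. Of the 21 listed genes, 18 were tested (median -0.44). Of these, 13 fell (72.2%, against 22.1% of all genes), 2 rose (11.1%, against 22.6%) and 3 did not pass. Falls numbered 8 without control replicate 2. Against siSIRT6, 9 of 18 were lower (against 18.6% of all genes) and 1 higher (against 21.3%).

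PSMB9, a catalytic subunit of the immunoproteasome, fell from 8.11, 7.74 and 9.94 to 2.56, 1.72 and 2.24 FPKM (log2 change -1.60, adjusted p = 0.000287), and PSMB10, another such subunit, from 11.4, 10.2 and 13.2 to 3.77, 2.89 and 4.704 FPKM (log2 change -1.41, adjusted p = 0.000774). TAP1, which carries peptides into the endoplasmic reticulum with TAP2, fell from 20.7, 21.03 and 20.2 to 9.76, 9.64 and 11.7 FPKM (log2 change -0.94, adjusted p = 0.00038). TAP2 fell from 14.4, 14.8 and 13.3 to 8.77, 9.36 and 10.7 FPKM (log2 change -0.52, adjusted p = 0.00379). TAP1 was at 18.9, 17.2 and 17.9 FPKM after siSIRT6 and differed between the knockdowns (-0.75, adjusted p = 0.000116), whereas TAP2 was at 9.29, 10.6 and 9.62 FPKM and did not pass that test.

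HLA-B, a class I heavy chain, fell from 13.3, 13.7 and 13.2 to 4.103, 5.599 and 6.76 FPKM (log2 change -1.17, adjusted p = 0.00125), with the caution that reads of near-identical class I genes can be split between them. The light chain gene B2M fell from 27.04, 28.1 and 25.3 to 11.5, 13.4 and 11.6 FPKM (log2 change -1.08, adjusted p = 0.000212) and was lower than after siSIRT6 (difference -0.54, adjusted p = 0.000447). ERAP2, a peptidase that trims peptides, fell from 7.07, 8.16 and 6.91 to 4.11, 4.56 and 3.62 FPKM (log2 change -0.72, adjusted p = 0.00163). TAPBPL, an editor of loaded peptides, fell from 2.38, 2.302 and 3.13 to 1.66, 1.39 and 1.74 FPKM (log2 change -0.47, adjusted p = 0.0145). The genes that rose were the general chaperones CALR (189, 184 and 214 to 274, 237 and 249 FPKM, adjusted p = 0.017) and PDIA3 (adjusted p = 0.0163), and both calls were lost without control replicate 1 (0.0699 for CALR and 0.0568 for PDIA3) or control replicate 2 (0.0699 and 0.0505). The call of CALR was also lost without siKDM5C replicate 1 (0.0512) and that of PDIA3 without control replicate 3 (0.0531).

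Most genes of cholesterol synthesis fell. All 22 listed synthesis genes were tested. Of these, 13 fell (59.1%, against 22.1% of all genes), 1 rose (4.55%, against 22.6%) and 8 did not pass, with a median of -0.37. Against siSIRT6, 19 of 22 were lower after siKDM5C and 1 was higher, with a median difference of -0.63. Of all genes in that contrast, 18.6% were lower. For several of the synthesis genes given below, siSIRT6 levels lay above control, which adds to the difference between the knockdowns.

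In the order of the pathway, ACAT2, whose enzyme joins acetyl units, went from 38.5, 36.8 and 41.8 to 24.1, 19.1 and 21.3 FPKM (log2 change -0.83, adjusted p = 0.000978). HMGCS1 makes the precursor of mevalonate and went from 14.1, 13.96 and 12.9 to 8.7, 9.24 and 7.52 FPKM (log2 change -0.63, adjusted p = 0.00171). In both genes the 3 siKDM5C libraries lay below the 3 controls, and after siSIRT6 HMGCS1 was at 21.3, 22.3 and 21.9 FPKM.

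IDI1, the isomerase of isoprenoid units, fell from 17.9, 17.6 and 17.2 to 11.5, 12.2 and 9.47 FPKM (log2 change -0.63, adjusted p = 0.0027). SQLE, which oxidises squalene, fell from 31.5, 31.03 and 30.1 to 20.9, 21.8 and 19.2 FPKM (log2 change -0.56, adjusted p = 0.00109). CYP51A1, the demethylase of lanosterol, fell from 36.5, 36.8 and 34.6 to 24.7, 25.3 and 22.1 FPKM (log2 change -0.56, adjusted p = 0.0014). TM7SF2, a sterol reductase, fell from 8.77, 7.82 and 8.87 to 3.84, 3.57 and 5.03 FPKM (log2 change -0.89, adjusted p = 0.00146).

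The largest fall on the log2(FPKM + 1) scale was that of MSMO1, the sterol C4-methyl oxidase (ENSG00000052802, chromosome 4, 165327623 to 165343160), from 52.8, 55.7 and 44.1 to 19.6, 24.96 and 18.2 FPKM (log2 change -1.25, SE 0.14, adjusted p = 0.000792). After siSIRT6 it stood at 67.8, 69.9 and 68.4 FPKM, the highest of the groups, and the difference between the knockdowns was -1.68 (adjusted p = 2.34e-05). The exception was PMVK, a kinase of the mevalonate branch, which rose from 11.6, 9.84 and 12.7 to 20.9, 17.3 and 21.5 FPKM (log2 change 0.76, adjusted p = 0.00294) and was at 20.2, 19.8 and 20.99 FPKM after siSIRT6, with no difference past the threshold between the knockdowns. FDPS, which makes farnesyl diphosphate and was named after its values were seen, did not pass, with a log2 change of -0.04.

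Of 20 genes of SREBP control and sterol uptake, 19 were tested (median -0.09). Of these, 4 rose (21.1%, against 22.6% of all genes), 6 fell (31.6%, against 22.1%) and 9 did not pass. Falls numbered 2 without control replicate 1 and 2 without control replicate 2. INSIG1, which retains SREBP in the endoplasmic reticulum, rose from 23.5, 23.8 and 21.2 to 32.7, 39.2 and 32.9 FPKM (log2 change 0.59, adjusted p = 0.003), and was higher still after siSIRT6, at 46.3, 46.3 and 47.6 FPKM. SCAP, the escort of SREBP, rose from 9.26, 9.11 and 10.1 to 11.6, 12.1 and 13.2 FPKM (log2 change 0.34, adjusted p = 0.0108), and MBTPS1, a protease that releases SREBP, from 10.7, 10.9 and 10.3 to 14.7, 15.01 and 15.8 FPKM (log2 change 0.48, adjusted p = 0.00134).

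The genes of the SREBP factors themselves did not pass and were named after their values were seen. SREBF2 was at 25.3, 24.6 and 25.2 FPKM in the controls and 21.9, 21.99 and 23.2 FPKM after siKDM5C (adjusted p = 0.0677), and SREBF1 at 19.4, 19.8 and 18 FPKM in the controls and 17.7, 20.6 and 23.2 FPKM after siKDM5C. STARD4, a carrier of cholesterol between membranes, fell from 6.72, 6.61 and 5.28 to 2.01, 2.17 and 1.65 FPKM (log2 change -1.29, adjusted p = 0.000336). TMEM97, a sterol-responsive protein of the endoplasmic reticulum, fell from 18.8, 17.6 and 18.3 to 9.06, 9.38 and 9.55 FPKM (log2 change -0.90, adjusted p = 0.000136). NPC1, which exports cholesterol from lysosomes (adjusted p = 0.016), and MYLIP, a ubiquitin ligase (adjusted p = 0.0173), fell as well, but both calls were lost without control replicate 1 (0.0769 and 0.0653) or control replicate 2 (0.0659 and 0.0534), and that of MYLIP also without siKDM5C replicate 1. The sequence TCACNCCAC, a core of sterol regulatory elements, searched on both strands, was in 0 of 16 fallen and 0 of 4 risen genes of both lists with a RefSeq promoter, in 1 of 10 that did not pass and in 1.15% of all promoters. This says only that the letters are not in these windows.

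Of 11 genes of sterol efflux and storage, 8 were tested, of which 3 rose (37.5%, against 22.6% of all genes), 1 fell (12.5%, against 22.1%) and 4 did not pass. The exporter gene ABCA1 rose from 1.27, 1.23 and 1.101 to 2.04, 2.26 and 2.19 FPKM (log2 change 0.53, adjusted p = 0.00186). OSBP, an oxysterol-binding transporter, rose from 11.7, 11.4 and 12.1 to 19.3, 19.4 and 17.6 FPKM (log2 change 0.64, adjusted p = 0.000625), and the lipoprotein gene APOE from 5.51, 4.97 and 5.05 to 7.88, 9.06 and 10.9 FPKM (log2 change 0.73, adjusted p = 0.00304). SOAT1, which esterifies cholesterol for storage, fell from 13.7, 13.4 and 13.5 to 9.82, 9.58 and 8.32 FPKM (log2 change -0.51, adjusted p = 0.00239). APOE was at 5.002, 5.22 and 5.21 FPKM after siSIRT6 and was thus higher after siKDM5C than in either other group (difference between knockdowns 0.73, adjusted p = 0.000616).

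Of 22 listed genes of fatty acid synthesis and desaturation, 21 were tested (median -0.27). Of these, 10 fell (47.6%, against 22.1% of all genes), 4 rose (19.0%, against 22.6%) and 7 did not pass. ELOVL7 reached 1 FPKM in the controls alone, and of the 20 other genes 9 fell and 4 rose. SCD, the desaturase that makes oleate and the most abundant gene of the list, fell from 558, 550.1 and 508 to 296, 320.2 and 295 FPKM (log2 change -0.82, SE 0.075, adjusted p = 0.000411), and was at 725, 709 and 727 FPKM after siSIRT6 (difference -1.24, adjusted p = 2.96e-06). FADS1, a desaturase of polyunsaturated fatty acids, fell from 29.5, 28.99 and 28.7 to 19.5, 19.6 and 19.7 FPKM (log2 change -0.54, adjusted p = 0.000546). ELOVL6, which elongates palmitate, fell from 7.79, 7.58 and 6.97 to 4.31, 5.22 and 4.28 FPKM (log2 change -0.60, adjusted p = 0.00235).

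ACSL3 and ACSL1, which activate fatty acids, fell with log2 changes of -0.49 and -0.38 (adjusted p = 0.00514 and 0.00648). ME1, a source of NADPH, rose from 14.6, 13.6 and 12.7 to 22.4, 26.7 and 22.4 FPKM (log2 change 0.76, adjusted p = 0.00111), and SCD5, a second desaturase, from 1.21, 1.57 and 1.15 to 2.36, 2.85 and 2.66 FPKM (log2 change 0.65, adjusted p = 0.00261). AGPAT2 also rose (adjusted p = 0.0284), a call lost without any of the 3 controls in turn or without siKDM5C replicate 1 (up to 0.0951). Rises numbered 2 without control replicate 1 and 2 without control replicate 2.

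**Figure D3:**
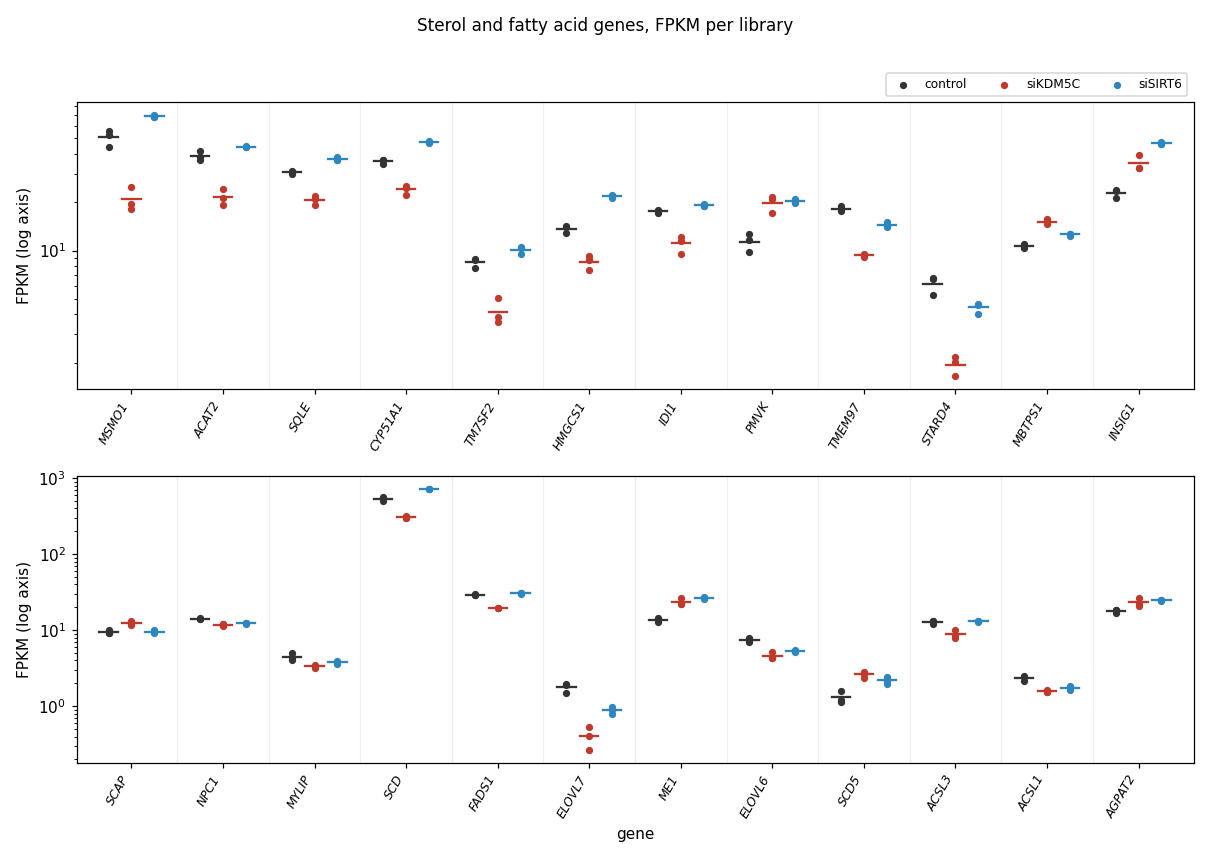
FPKM on a log axis for 24 genes of cholesterol synthesis, SREBP control and uptake, and fatty acid synthesis (x axis); points are single libraries and bars are group means for control (black), siKDM5C (red) and siSIRT6 (blue). HMGCS1, CYP51A1, MSMO1 and SCD show siKDM5C below control and siSIRT6 above it, and MBTPS1 shows siKDM5C above both.

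Of the S phase genes, about as many changed as among all genes tested, with more rises and, at the filter of 1 FPKM, fewer falls. The 4 lists of G1/S control, origin firing, replication fork and nucleotide supply hold 106 genes, of which 105 had a value and 102 were tested. Of these, 33 rose (32.4%, against 22.6% of all genes), 17 fell (16.7%, against 22.1%) and 52 did not pass, with a median of 0.04. In all 49.0% changed, against 44.7% of all genes, and the list of the replication fork, with 37.1%, lay below that share. Rises numbered 22 without control replicate 1. With at least 5 FPKM in 3 libraries, 21 of 68 S phase genes rose and 16 fell, beside 2293 rises and 2254 falls among 9127 genes. Against siSIRT6, 70 of the 102 were higher after siKDM5C and 6 lower, with a median difference of 0.40. Of all genes in that contrast, 21.3% were higher and 18.6% lower. Levels after siSIRT6 lay below control for several of the genes given below.

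Several E2F genes and partners rose. TFDP1, the DNA-binding partner of E2F factors, went from 17.4, 18.3 and 19.6 to 31.7, 29.7 and 28.8 FPKM (log2 change 0.68, SE 0.072, adjusted p = 0.00067) and was at 13.7, 12.99 and 13 FPKM after siSIRT6. E2F7, a repressor of the E2F program, went from 12.7, 12.5 and 11.6 to 22.9, 24.9 and 19.97 FPKM (log2 change 0.83, adjusted p = 0.000807). E2F1, the leading activator, went from 4.8, 5.26 and 5.48 to 11.2, 8.28 and 9.33 FPKM (log2 change 0.77, adjusted p = 0.00212). In each, all siKDM5C libraries lay above all controls, and TFDP2 did so too (log2 change 0.47, adjusted p = 0.00223).

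CCND1, cyclin D1, fell from 214, 213 and 187 to 33.5, 35.98 and 34.99 FPKM (log2 change -2.52, adjusted p = 1.53e-05). The inhibitor genes CDKN1A (p21) and CDKN1B (p27) fell from 131, 127 and 135 to 55.5, 53.5 and 58.3 FPKM (log2 change -1.22, adjusted p = 6.76e-05) and from 6.94, 6.63 and 6.47 to 4.38, 4.32 and 4.35 FPKM (log2 change -0.52, adjusted p = 0.000889). After siSIRT6 CDKN1A was at 52.9, 52.8 and 54.1 FPKM, and for neither inhibitor did the difference between the knockdowns pass. E2F3 fell from 15.4, 15.1 and 13.1 to 9.202, 10.8 and 9.18 FPKM (log2 change -0.53, adjusted p = 0.00461). In all, 9 of 27 G1/S genes rose (33.3%, against 22.6% of all genes), 7 fell (25.9%, against 22.1%) and 11 did not pass (median -0.10, 30 listed, 29 with a value), and 5 rose without control replicate 1.

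Of 27 tested genes of origin licensing and firing (28 listed), 11 rose (40.7%, against 22.6% of all genes), 4 fell (14.8%, against 22.1%) and 12 did not pass (median 0.13). Of the 27, 22 were higher than after siSIRT6 (against 21.3% of all genes) and 1 was lower (against 18.6%). DTL, a ligase subunit that destroys the licensing factor CDT1 (ENSG00000143476, chromosome 1, 212035553 to 212107400), rose from 6.76, 6.61 and 6.14 to 15.2, 16.3 and 13.02 FPKM (log2 change 1.07, SE 0.092, adjusted p = 0.000333). It was at 5.62, 5.46 and 5.51 FPKM after siSIRT6, and the siKDM5C libraries were the highest of the 9 (difference 1.27, adjusted p = 1.1e-05). CDC45 and the GINS complex complete the replicative helicase. CDC45 rose from 3.08, 2.78 and 3.202 to 6.26, 4.72 and 5.63 FPKM (log2 change 0.70, adjusted p = 0.00235), GINS3 from 1.12, 1.19 and 1.101 to 2.53, 2.34 and 2.38 FPKM (log2 change 0.68, adjusted p = 0.000555) and GINS4 from 1.09, 1.37 and 1.31 to 2.51, 2.29 and 2.23 FPKM (log2 change 0.57, adjusted p = 0.00212).

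ORC1, a subunit of the origin recognition complex, rose from 3.91, 3.696 and 3.69 to 5.18, 5.91 and 5.797 FPKM (log2 change 0.47, adjusted p = 0.00241), while its partner ORC2 fell from 8.18, 8.48 and 7.55 to 4.401, 4.83 and 4.21 FPKM (log2 change -0.73, adjusted p = 0.000603). RECQL4, a helicase of initiation, rose from 8.28, 7.95 and 8.03 to 10.9, 10.96 and 13.1 FPKM (log2 change 0.48, adjusted p = 0.00463). DBF4, which activates the kinase CDC7, fell from 12.3, 12.4 and 10.4 to 6.43, 8.94 and 6.07 FPKM (log2 change -0.65, adjusted p = 0.0109), and so did the initiation factor TOPBP1 (log2 change -0.35, adjusted p = 0.00886). ORC1 and ORC2, of a single complex, thus moved in opposite directions. The helicase core gene MCM2, named after its values were seen, was at 18.1, 18.5 and 19.2 FPKM in the controls and 16.98, 15.7 and 17.6 FPKM after siKDM5C and did not pass.

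At the replication fork, 9 of 35 genes rose (25.7%, against 22.6% of all genes), 4 fell (11.4%, against 22.1%) and 22 did not pass (median 0.04), and 4 rose without control replicate 1. CHAF1A and CHAF1B place histones on new DNA. CHAF1A rose from 4.15, 4.097 and 4.95 to 9.67, 8.55 and 8.94 FPKM (log2 change 0.90, SE 0.087, adjusted p = 0.000477) and CHAF1B from 1.71, 2.04 and 1.88 to 3.37, 3.22 and 3.23 FPKM (log2 change 0.57, adjusted p = 0.00129). POLA2, a subunit of the priming polymerase, rose from 5.93, 5.82 and 5.504 to 8.23, 8.56 and 8.95 FPKM (log2 change 0.51, adjusted p = 0.0013), and FEN1, the flap nuclease, from 25.3, 24.1 and 26.4 to 33.05, 31.6 and 36.1 FPKM (log2 change 0.40, adjusted p = 0.00603).

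RFC3, a clamp loader subunit, fell from 6.44, 6.64 and 6.599 to 3.26, 3.27 and 2.41 FPKM (log2 change -0.93, adjusted p = 0.000738). POLD2, a subunit of polymerase delta, fell from 29.2, 27.5 and 35.8 to 19.7, 16.3 and 17.9 FPKM (log2 change -0.74, adjusted p = 0.0031), and UHRF1, which guides maintenance of DNA methylation, from 10.5, 9.97 and 10.6 to 7.196, 7.32 and 8.04 FPKM (log2 change -0.41, adjusted p = 0.00336). PCNA, the sliding clamp, named after its values were seen, was at 51.1, 47.9 and 46.9 FPKM in the controls and 50.95, 51.3 and 56.7 FPKM after siKDM5C with overlapping groups. TIMELESS rose (adjusted p = 0.0126), a call lost without control replicate 1 (0.0649).

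Of 13 genes of deoxynucleotide supply, 4 rose (30.8%, against 22.6% of all genes), 2 fell (15.4%, against 22.1%) and 7 did not pass (median -0.02), and falls numbered 4 without siKDM5C replicate 3 and 1 without control replicate 1. Ribonucleotide reductase makes deoxynucleotides, and its subunit genes RRM1 and RRM2 rose from 20.2, 20.2 and 19.6 to 33.4, 34.1 and 28.4 FPKM (log2 change 0.65, adjusted p = 0.00133) and from 8.25, 7.96 and 7.305 to 12.2, 14.1 and 13.5 FPKM (log2 change 0.69, adjusted p = 0.000853). The p53-induced subunit RRM2B fell from 12.2, 11.8 and 10.4 to 7.75, 8.85 and 6.16 FPKM (log2 change -0.55, adjusted p = 0.0138), a call lost without control replicate 1 (0.0503). CAD, the first enzyme of pyrimidine synthesis, rose from 6.99, 6.91 and 6.16 to 8.696, 8.59 and 9.73 FPKM (log2 change 0.38, adjusted p = 0.0087), and SAMHD1, which breaks deoxynucleotides down, fell from 2.96, 3.15 and 2.98 to 2.18, 2.39 and 2.09 FPKM (log2 change -0.32, adjusted p = 0.0104).

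Promoter windows of 3 genes with opposite changes are shown, since E2F sites mark this program. Capitals mark TTTCCCGC, TTTGGCGC, TTTGCCGC or TTTCGCGC or their reverse complements. TFDP1 and RBL1, a pocket protein that binds E2F factors, rose, and E2F3 fell.
TFDP1: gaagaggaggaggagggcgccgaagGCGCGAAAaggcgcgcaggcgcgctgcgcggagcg
RBL1: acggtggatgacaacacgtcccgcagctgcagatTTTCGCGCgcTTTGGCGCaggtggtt
E2F3: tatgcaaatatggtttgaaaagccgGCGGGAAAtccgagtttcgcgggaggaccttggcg

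They are chr13:113584608-113584667 (plus strand), chr20:37095998-37096057 (minus strand) and chr6:20401801-20401860 (plus strand) of GRCh38.p14, from RefSeq. Such a sequence was in 11 of 27 risen S phase genes with a RefSeq promoter, in 4 of 14 that fell, in 15 of 43 that did not pass and in 3.34% of all promoters. RBL1, named for its promoter after its values were seen, rose from 1.76, 1.497 and 1.18 to 2.69, 2.995 and 2.16 FPKM (log2 change 0.55, adjusted p = 0.013).

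Beyond S phase, 8 of 34 G2/M genes rose (23.5%, against 22.6% of all genes), 6 fell (17.6%, against 22.1%) and 20 did not pass (median -0.04). Falls numbered 3 without control replicate 2 and 3 without siKDM5C replicate 1. Against siSIRT6, 31 of the 34 were higher after siKDM5C, while 21.3% of all genes were higher. Levels after siSIRT6 lay below control for several of these genes, which adds to the difference between the knockdowns. MYBL2, a factor that switches on late cell cycle genes, rose from 22.8, 22.5 and 22.6 to 47.6, 45.8 and 51.8 FPKM (log2 change 1.06, SE 0.067, adjusted p = 0.000108), and BIRC5, survivin, from 8.77, 8.88 and 8.57 to 18.7, 14.9 and 16.5 FPKM (log2 change 0.86, adjusted p = 0.000605). PRC1, a cross-linker of the central spindle, rose from 21.5, 20.3 and 21.2 to 30.5, 29.3 and 29.6 FPKM (log2 change 0.49, adjusted p = 0.00105), whereas KIF23, a motor of the same structure, fell from 15.8, 15.99 and 15.4 to 10.4, 10.8 and 10.1 FPKM (log2 change -0.55, adjusted p = 0.000722). After siSIRT6 KIF23 was lower still, at 7.57, 7.57 and 7.91 FPKM. ECT2, which starts cytokinesis, fell from 41.6, 41.5 and 39.2 to 26.8, 31.03 and 22.9 FPKM (log2 change -0.59, adjusted p = 0.0059). MKI67, a marker of proliferating cells named after its values were seen, was at 27.8, 28.1 and 27.2 FPKM in the controls and 26.8, 31.1 and 27.4 FPKM after siKDM5C, with overlapping groups, and at 12.1, 11.9 and 11.6 FPKM after siSIRT6.

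**Figure D4:**
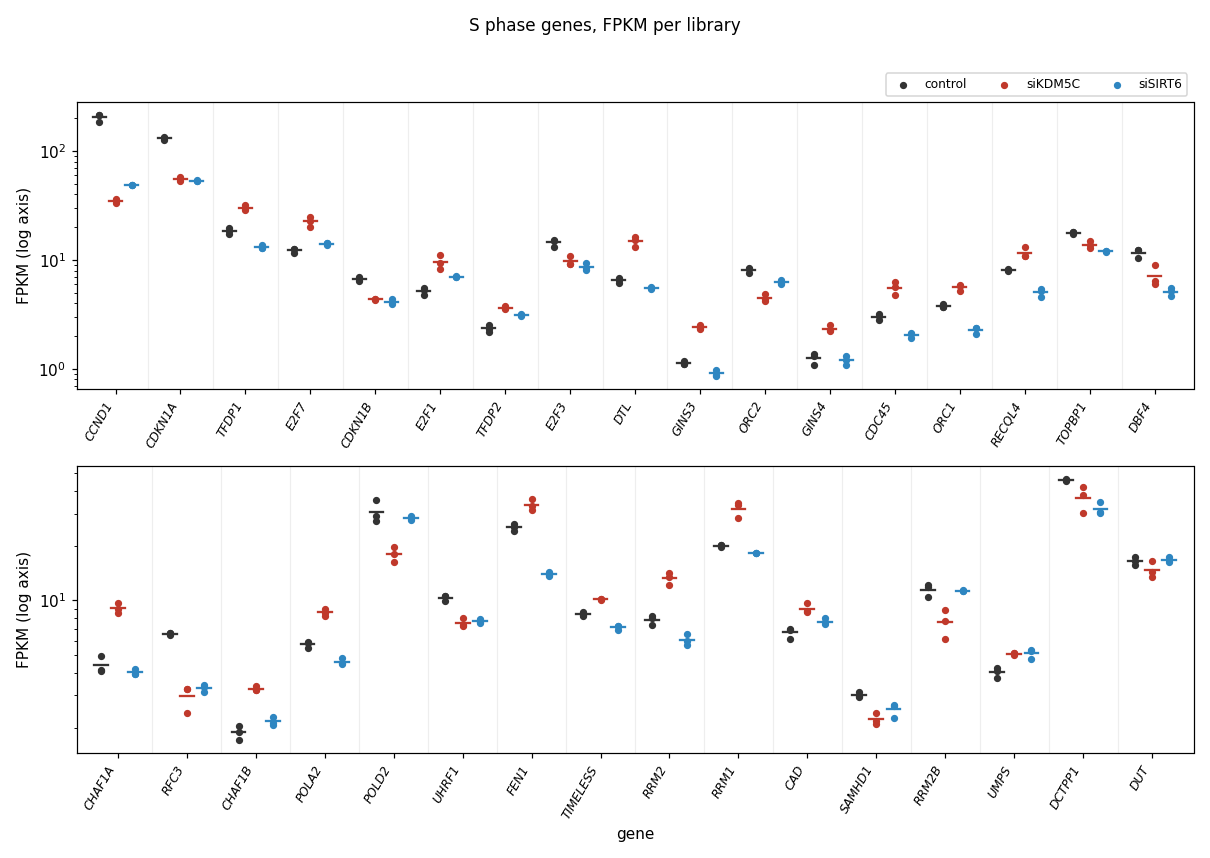
FPKM on a log axis for 33 S phase genes (x axis); points are single libraries and bars are group means for control (black), siKDM5C (red) and siSIRT6 (blue). TFDP1, DTL, CDC45 and CHAF1A show siKDM5C above both other groups, CCND1 and CDKN1A lie below control in both knockdowns, and ORC2 and POLD2 show siKDM5C lowest.

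Of the secreted factor genes, more rose than among all genes tested, while the share that fell was close to that of all genes. Of 198 listed genes, 193 had a value and 107 were tested (median 0.23). Of these, 54 rose (50.5%, against 22.6% of all genes), 28 fell (26.2%, against 22.1%) and 25 did not pass. CTF1, IGFBP3 and COL4A1 reached 1 FPKM after siKDM5C alone, and MMP9 and FSTL1 in the controls alone. Among the other 102, 51 rose and 26 fell. Against siSIRT6, 111 were tested, with 27 higher (against 21.3% of all genes) and 49 lower (against 18.6%) after siKDM5C.

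Ligands of the EGF receptor family, which drive epithelial growth, rose in 4 of 5 tested cases of 10 listed (80.0%, against 22.6% of all genes), and none fell (median 1.17). AREG, amphiregulin (ENSG00000109321, chromosome 4, 74445134 to 74455009), rose from 4.18, 4.502 and 4.37 to 29.6, 26.7 and 27.2 FPKM (log2 change 2.43, SE 0.067, adjusted p = 1.06e-05), and was at 14.6, 15.96 and 16.1 FPKM after siSIRT6 (difference 0.80, adjusted p = 2.79e-05). NRG1, neuregulin, rose from 1.98, 1.91 and 1.88 to 5.61, 6.06 and 5.07 FPKM (log2 change 1.17, adjusted p = 0.000128). EREG rose from 12.2, 13.2 and 8.34 to 23.5, 35.96 and 24.3 FPKM (log2 change 1.23, adjusted p = 0.00441), with more spread, and HBEGF from 10.8, 10.6 and 10.6 to 14.3, 14.7 and 14.04 FPKM (log2 change 0.40, adjusted p = 0.00196). HBEGF was at 5.47, 6.17 and 6.12 FPKM after siSIRT6, below the controls (difference 1.15, adjusted p = 2.63e-06). NRG2 was at 3.09, 3.54 and 3.09 FPKM in the controls and 4.02, 3.67 and 3.97 FPKM after siKDM5C and did not pass.

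Chemokines, which attract leukocytes, fell in 7 of 9 tested cases of 16 listed (77.8%, against 22.1% of all genes), and none rose (median -1.59). CX3CL1, fractalkine, fell from 15.4, 15.3 and 15.5 to 2.57, 2.41 and 2.98 FPKM (log2 change -2.17, adjusted p = 2.19e-05). CCL20 fell from 11.6, 11.3 and 9.95 to 1.05, 1.39 and 1.105 FPKM (log2 change -2.45, adjusted p = 2.58e-05) and CCL2, which draws monocytes, from 81.4, 81.4 and 61.7 to 12.97, 17.3 and 16.6 FPKM (log2 change -2.19, adjusted p = 0.000139). For these 3 genes each siKDM5C library was below the lowest control and below every siSIRT6 library.

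CXCL16 fell from 5.17, 5.42 and 5.87 to 1.14, 1.26 and 1.01 FPKM (log2 change -1.60, adjusted p = 5.63e-05). The neutrophil attractants CXCL2, CXCL8 and CXCL3 fell with log2 changes of -1.59, -0.96 and -0.65 (adjusted p = 0.000297, 0.0011 and 0.00269). CXCL1 was at 20.4, 19.8 and 16.6 FPKM in the controls and 15.1, 16.4 and 17.6 FPKM after siKDM5C and did not pass, and was at 38.9, 41.9 and 39.6 FPKM after siSIRT6 (difference -1.25, adjusted p = 1.99e-05).

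Of 14 tested cytokine genes (27 listed, 26 with a value), 4 rose, 7 fell and 3 did not pass. Without CTF1, 3 of 13 rose and 7 fell. EBI3, a subunit of IL-27 and IL-35, had the largest fall on the log2(FPKM + 1) scale of all protein-coding genes with at least 5 FPKM in a group, from 29, 27.01 and 23.3 to 1.17, 1.98 and 1.54 FPKM (log2 change -3.43, SE 0.14, adjusted p = 3.13e-05). CSF1 and CSF2, growth factors of macrophages and granulocytes, fell from 63.1, 61.7 and 63.7 to 12.4, 11.3 and 12.7 FPKM (log2 change -2.28, adjusted p = 1.1e-05) and from 10.1, 8.85 and 7.003 to 1.13, 0.823 and 1.42 FPKM (log2 change -2.18, adjusted p = 0.000154). IL23A, a subunit of IL-23, fell from 5.97, 6.19 and 5.78 to 1.42, 1.38 and 1.496 FPKM (log2 change -1.52, adjusted p = 3.95e-05), and was lower still after siSIRT6, at 0.561, 0.747 and 0.442 FPKM.

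TNFSF15, a TNF family ligand, rose from 1.57, 1.39 and 1.31 to 8.77, 10.2 and 8.22 FPKM (log2 change 2.05, adjusted p = 4.77e-05), above the level after siSIRT6, where it was at 3.79, 3.65 and 3.73 FPKM (difference 1.09, adjusted p = 2.27e-05). Of the IL-6 family, LIF rose from 29.5, 31.7 and 29.7 to 37.2, 39.3 and 41.9 FPKM (log2 change 0.37, adjusted p = 0.00622) and CTF1 from 0.568, 0.383 and 0.619 to 1.82, 1.61 and 1.62 FPKM (log2 change 0.82, adjusted p = 0.0008). LIF was at 20.4, 19.96 and 19.7 FPKM after siSIRT6, below the controls.

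Growth factors and hormones rose in 12 of 23 tested cases (52.2%, against 22.6% of all genes), with 5 falls (21.7%, against 22.1%) and 6 not passed (median 0.24, 40 listed, 37 with a value). Rises numbered 8 without control replicate 1, 2 or 3, and falls 3 without control replicate 1 or control replicate 2. STC1, a secreted glycoprotein hormone, rose from 3.76, 3.703 and 3.49 to 26.1, 33.6 and 29.4 FPKM (log2 change 2.72, SE 0.098, adjusted p = 2.42e-05), and was at 9.48, 10.1 and 10.4 FPKM after siSIRT6 (difference 1.47, adjusted p = 9.41e-06). NTN4, a netrin of basement membranes, rose from 12.1, 11.99 and 11.4 to 76.97, 78.2 and 73.1 FPKM (log2 change 2.59, adjusted p = 1.06e-05) and was at 76.1, 76.3 and 76.8 FPKM after siSIRT6, with no difference past the threshold between the knockdowns. IGF2 rose from 22.8, 23.9 and 23.9 to 58.02, 53.8 and 59.95 FPKM (log2 change 1.25, adjusted p = 6.76e-05), and the peptides ADM and PTHLH with log2 changes of 0.52 and 0.36 (adjusted p = 0.000953 and 0.00741).

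PDGFB fell from 39.8, 38.96 and 41.7 to 27.2, 25.5 and 26.8 FPKM (log2 change -0.58, adjusted p = 0.000673) and was at 49.99, 46.9 and 48.5 FPKM after siSIRT6. FGF2 fell from 3.05, 3.28 and 3.11 to 2.02, 2.19 and 1.55 FPKM (log2 change -0.51, adjusted p = 0.00683) and the lymphatic growth factor VEGFC from 4.33, 4.31 and 4.22 to 3.16, 3.43 and 3.19 FPKM (log2 change -0.31, adjusted p = 0.00785). GDF15, a stress hormone, fell from 258, 247 and 220 to 137, 173 and 189 FPKM (log2 change -0.55, adjusted p = 0.0153), a call lost without control replicate 1 (0.057) or control replicate 2 (0.0507). PDGFB and FGF2 were both lower after siKDM5C than in either other group, with differences from siSIRT6 of -0.85 and -0.87 (adjusted p = 9.67e-06 and 0.000114).

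In the TGF-beta superfamily, 7 of 13 tested genes rose (53.8%, against 22.6% of all genes), 4 fell (30.8%, against 22.1%) and 2 did not pass (median 0.28, 20 listed). Without FSTL1, 7 of 12 rose and 3 fell. TGFB1 rose from 28.6, 29.1 and 28.5 to 39.4, 38.6 and 41.1 FPKM (log2 change 0.45, adjusted p = 0.00133). The latent TGF-beta binding proteins LTBP1 and LTBP2 rose from 9.44, 9.25 and 9.21 to 26.4, 25.7 and 25.97 FPKM (log2 change 1.39, adjusted p = 3.16e-05) and from 10.3, 11.2 and 10.4 to 28.4, 30.5 and 32.1 FPKM (log2 change 1.43, adjusted p = 5.97e-05). NOG, noggin, which blocks BMPs, rose from 4.796, 4.58 and 5.097 to 13.4, 13.7 and 15.9 FPKM (log2 change 1.40, adjusted p = 9.32e-05), and BMP4 fell from 5.55, 5.78 and 5.75 to 3.08, 2.57 and 3.26 FPKM (log2 change -0.76, adjusted p = 0.000777).

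BMP6 rose with a log2 change of 0.30 (adjusted p = 0.00626). INHBB, an activin subunit, fell from 8.71, 7.55 and 8.21 to 4.54, 4.28 and 5.15 FPKM (log2 change -0.70, adjusted p = 0.00113) and was at 15.4, 15.1 and 17.1 FPKM after siSIRT6, above the controls (difference -1.58, adjusted p = 3.74e-06). FSTL3, which sequesters activins, fell from 23.4, 24.1 and 25.5 to 12.4, 10.1 and 13.9 FPKM (log2 change -0.96, adjusted p = 0.00103).

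All 6 tested WNT ligands and antagonists of 16 listed rose, against 22.6% of all genes (median 1.05). WNT9A rose from 2.59, 2.58 and 2.85 to 11.3, 10.6 and 12.2 FPKM (log2 change 1.75, adjusted p = 4.13e-05), WNT7B from 16.4, 15.8 and 15.7 to 26, 25.9 and 28.3 FPKM (log2 change 0.71, adjusted p = 0.000386) and WNT5B from 5.69, 5.82 and 6.54 to 9.84, 8.49 and 10.4 FPKM (log2 change 0.59, adjusted p = 0.0029). The antagonists DKK1, DKK3 and SFRP1 rose as well, DKK1 from 39.03, 36.9 and 34.4 to 107, 118 and 111 FPKM (log2 change 1.58, adjusted p = 5.31e-05). SFRP1 rose from 10.6, 10.2 and 10.3 to 27.6, 29.5 and 26.6 FPKM (log2 change 1.35, adjusted p = 5.31e-05) and was higher than after siSIRT6, the only one of the 6 for which that test gave a higher level after siKDM5C.

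Of 5 tested IGF binding protein genes of 7 listed, 3 rose, none fell and 2 did not pass. IGFBP3 reached 1 FPKM after siKDM5C alone, so that its inclusion depended on a difference. Of the 4 other genes, 2 rose and none fell. IGFBP3 rose from 0.89, 0.895 and 0.879 to 4.48, 4.54 and 4.71 FPKM (log2 change 1.56, adjusted p = 3.26e-05), IGFBP4 from 94.6, 90.1 and 105 to 203, 169 and 199 FPKM (log2 change 0.97, adjusted p = 0.000586) and IGFBP6 from 4.57, 3.74 and 3.74 to 10.9, 9.52 and 12.5 FPKM (log2 change 1.25, adjusted p = 0.000404). IGFBP4 stood higher after siSIRT6, at 289, 296 and 297 FPKM, and IGFBP6 lower, at 6.004, 6.66 and 6.38 FPKM.

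Of 18 tested matrix genes of 29 listed, 10 rose (55.6%, against 22.6% of all genes), 2 fell (11.1%, against 22.1%) and 6 did not pass (median 0.29). Without COL4A1, 9 of 17 rose and 2 fell. Of the 18, 12 were lower after siKDM5C than after siSIRT6, against 18.6% of all genes. CCN1, a matricellular protein, rose from 195, 191 and 176 to 347, 374 and 404 FPKM (log2 change 1.00, adjusted p = 0.000308). THBS1 rose from 2.63, 2.47 and 2.29 to 8.97, 9.497 and 10.1 FPKM (log2 change 1.60, adjusted p = 5.27e-05) and the collagen gene COL5A1 from 5.25, 5.39 and 4.96 to 13.5, 13.97 and 14.9 FPKM (log2 change 1.29, adjusted p = 6.5e-05). THBS1 was at 16.7, 16.9 and 17.1 FPKM after siSIRT6. The laminin chain gene LAMA5 fell from 57.9, 56.5 and 49.9 to 31.4, 36.6 and 42.8 FPKM (log2 change -0.56, adjusted p = 0.0104), and THBS3 fell (adjusted p = 0.0425), a call lost in each of the 6 leave-one-out fits but that without siKDM5C replicate 3.

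Among 14 tested secreted proteases and inhibitors of 33 listed, 8 rose (57.1%, against 22.6% of all genes), 3 fell (21.4%, against 22.1%) and 3 did not pass (median 0.28). Without MMP9, 8 of 13 rose and 2 fell. The collagenase gene MMP1 rose from 2.69, 2.81 and 2.64 to 12.4, 12.6 and 10.5 FPKM (log2 change 1.78, adjusted p = 5.31e-05), MMP2 from 17.4, 17.3 and 18.6 to 31.2, 29.5 and 33.05 FPKM (log2 change 0.78, adjusted p = 0.000371) and CPA4, a carboxypeptidase, from 0.833, 1.34 and 1.04 to 8.02, 8.62 and 8.44 FPKM (log2 change 2.18, adjusted p = 5.21e-05). MMP1 was higher than after siSIRT6 (6.87, 7.17 and 7.302 FPKM), and MMP2 and CPA4 were lower (56.4, 54.95 and 57.1 FPKM and 28.8, 28.6 and 27.9 FPKM).

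PLAU, the urokinase that activates plasminogen, fell from 781, 784 and 737 to 286, 287 and 326 FPKM (log2 change -1.35, adjusted p = 9.47e-05). MMP9 fell from 1.22, 1.57 and 1.81 to 0.112, 0.162 and 0.184 FPKM (log2 change -1.13, adjusted p = 0.000442). TFPI, an inhibitor of coagulation, rose from 8.41, 8.38 and 7.204 to 14.7, 17.4 and 12.8 FPKM (log2 change 0.82, adjusted p = 0.00213) and was at 5.12, 5.38 and 4.98 FPKM after siSIRT6 (difference 1.36, adjusted p = 2.93e-05).

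On the cell surface, THBD, thrombomodulin, which turns thrombin into an anticoagulant enzyme (ENSG00000178726, chromosome 20, 23045633 to 23049741), reached 1 FPKM after siKDM5C alone, so that its inclusion depended on a difference. It stood at 0.857, 0.857 and 0.743 FPKM in the controls and at 18.7, 22.5 and 21.3 FPKM after siKDM5C (log2 change 3.58, SE 0.085, adjusted p = 1.06e-05), against 2.101, 2.15 and 1.97 FPKM after siSIRT6 (difference 2.82, adjusted p = 4.59e-07). The protease receptor gene F2RL1 rose from 100.3, 98.6 and 88.9 to 142, 155 and 144 FPKM (log2 change 0.61, adjusted p = 0.0012). PLAUR, the urokinase receptor, fell from 7.73, 7.74 and 7.97 to 5.11, 4.97 and 5.98 FPKM (log2 change -0.48, adjusted p = 0.00359), and S100A10, a plasminogen receptor subunit, from 401, 403 and 360.1 to 241, 237 and 268 FPKM (log2 change -0.64, adjusted p = 0.00147). PROCR fell (adjusted p = 0.0201), a call lost without control replicate 1 (0.0733), control replicate 2 (0.0557) or siKDM5C replicate 1 (0.0602). In all, 2 of 9 tested genes rose (22.2%, against 22.6% of all genes), 3 fell (33.3%, against 22.1%) and 4 did not pass. Of the 8 genes other than THBD 1 rose and 3 fell. Rises numbered 1 without siKDM5C replicate 1, 2 or 3.

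**Figure D5:**
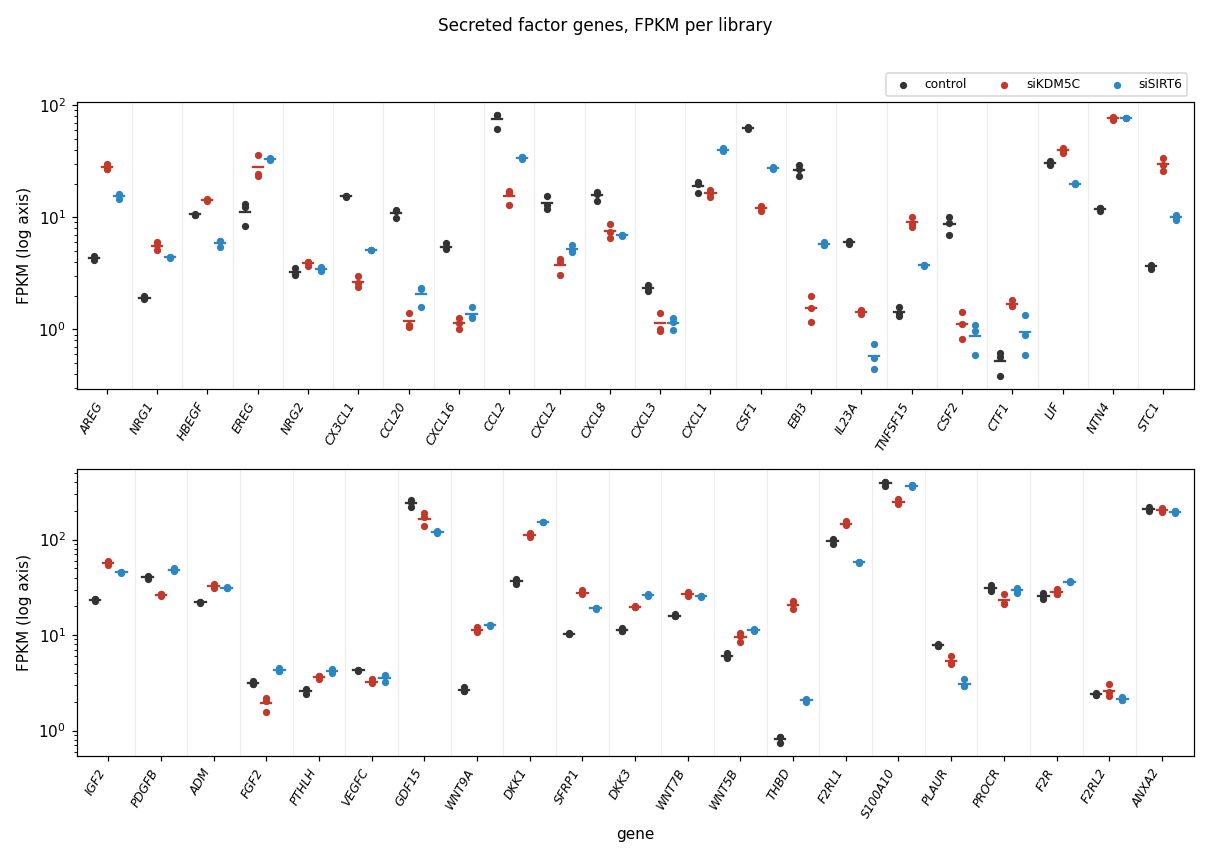
FPKM on a log axis for 43 genes of secreted ligands and surface haemostasis receptors (x axis); points are single libraries and bars are group means for control (black), siKDM5C (red) and siSIRT6 (blue). CX3CL1, CCL2, CSF1 and EBI3 show siKDM5C lowest, AREG, TNFSF15, STC1 and THBD show siKDM5C highest, and NTN4 and WNT9A lie above control in both knockdowns.

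Over all genes, those of the lists included, 1673 protein-coding genes with at least 5 FPKM in a group differed in the same direction from control and from siSIRT6, 837 higher and 836 lower after siKDM5C, in contrasts that share the siKDM5C libraries. The genes in which the smaller of both differences was largest had all siKDM5C libraries outside the range of the other 6. PAPOLA, the canonical poly(A) polymerase (ENSG00000090060, chromosome 14, 96501433 to 96567111), was at 13.1, 13.6 and 13.02 FPKM in the controls, 1.797, 1.76 and 1.52 FPKM after siKDM5C and 12.2, 12.5 and 12.4 FPKM after siSIRT6 (log2 change -2.40, SE 0.069, adjusted p = 1.1e-05). C15orf48, a mitochondrial protein induced by inflammation, was at 122, 122 and 121 FPKM in the controls, 32.6, 27.2 and 28.9 FPKM after siKDM5C (log2 change -2.01, adjusted p = 3.13e-05) and 120.3, 126 and 125 FPKM after siSIRT6. IDH1, the cytosolic isocitrate dehydrogenase, was at 34.3, 34.9 and 35.05 FPKM in the controls and 10.7, 10.6 and 9.12 FPKM after siKDM5C (log2 change -1.68, adjusted p = 4.77e-05), with 34.5, 34.7 and 35 FPKM after siSIRT6.

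SH3BP4, a regulator of receptor endocytosis, fell from 40.9, 41.2 and 39.5 to 9.22, 9.77 and 10.1 FPKM (log2 change -1.96, adjusted p = 1.53e-05). CCNC, cyclin C of the Mediator kinase module, fell from 13.5, 15.2 and 11.99 to 3.697, 4.88 and 3.62 FPKM (log2 change -1.52, adjusted p = 0.00029), and CCNJ from 9.23, 8.91 and 6.83 to 1.49, 1.93 and 1.25 FPKM (log2 change -1.86, adjusted p = 0.000205). SMIM13, CEND1 and SOD2 completed these falls, with log2 changes of -2.00, -2.64 and -2.22 (adjusted p = 7.43e-05, 7.15e-05 and 1.06e-05). Beside KDM5C itself, these 9 genes were the largest by that ranking.

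On the other side, MMP14, a membrane-bound collagenase, rose from 1.35, 1.37 and 1.19 to 6.33, 6.12 and 6.39 FPKM (log2 change 1.66, adjusted p = 3.26e-05), against 1.14, 1.198 and 1.04 FPKM after siSIRT6. CALB2, the calcium buffer calretinin, rose from 1.39, 1.23 and 1.13 to 8.47, 8.26 and 8.77 FPKM (log2 change 2.08, adjusted p = 2.06e-05), and AKAP12, a kinase scaffold, from 52.1, 51.96 and 49.2 to 237, 260 and 233 FPKM (log2 change 2.23, adjusted p = 1.53e-05). NDRG1, a stress-induced gene, rose from 4.52, 4.64 and 5.01 to 11.4, 10.8 and 11.3 FPKM (log2 change 1.09, adjusted p = 9.19e-05), and YJEFN3 from 1.34, 1.75 and 1.32 to 5.12, 4.49 and 6.43 FPKM (log2 change 1.35, adjusted p = 0.000477). THBD, STC1, TNFSF15 and DTL belong to the same ranking, and so does the clone-named AC253536.7, which overlaps DDT and is uncertain.

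Among the remaining protein-coding genes with the highest rises, ADAM19, a membrane-bound metalloprotease, went from 15.1, 14.8 and 14.8 to 65.6, 67.4 and 69.8 FPKM (log2 change 2.11, adjusted p = 1.06e-05). TPM4, a tropomyosin, went from 7.84, 8.19 and 7.97 to 51.1, 55.1 and 48.4 FPKM (log2 change 2.54, adjusted p = 1.06e-05), and BICD2, a dynein adaptor, from 1.93, 1.53 and 1.65 to 11.02, 12.3 and 12.5 FPKM (log2 change 2.26, adjusted p = 2.58e-05). All 3 were also higher than after siSIRT6. The overlapping pair OPN3 and KMO rose but was lower than after siSIRT6, KMO, an enzyme of tryptophan breakdown, from 1.84, 1.68 and 1.35 to 9.48, 11.8 and 9.38 FPKM (log2 change 2.09, adjusted p = 6.84e-05). KIF1C and FAM3C rose with log2 changes of 2.16 and 2.03 (adjusted p = 2.19e-05 and 7.39e-05), and the reads of FAM3C may be split with a near-identical pseudogene.

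Among the largest falls, PTGES, which makes prostaglandin E2, went from 13.6, 12.5 and 12.4 to 1.16, 1.17 and 1.32 FPKM (log2 change -2.64, adjusted p = 1.06e-05). ANO9, a member of the anoctamin family, went from 11.8, 14.99 and 14.4 to 1.05, 1.02 and 1.16 FPKM (log2 change -2.82, adjusted p = 2.19e-05). CD69, best known as an early activation marker of lymphocytes, went from 41.9, 41.6 and 37.3 to 7.21, 8.72 and 6.798 FPKM (log2 change -2.27, adjusted p = 4.56e-05), and CA8, a carbonic anhydrase relative, from 29.4, 27.9 and 25.7 to 4.83, 5.21 and 4.98 FPKM (log2 change -2.26, adjusted p = 1.53e-05). All 4 were also lower than after siSIRT6.

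Of the 228 genes chosen by rule, 81 share exon bases with another tested gene, and whether counting used strand is unknown here. IRF1, IFIT2, TAP1, PSMB9, ACAT2, FADS1, CCND1, IGF2, THBS1 and SOD2 are among them, so that part of their values may belong to a neighbour.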

How the data were processed

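Transcripts of 6 PANC-1 libraries, 3 control and 3 siKDM5C, were compared, and 3 siSIRT6 libraries entered the fit of all 9 that tests siKDM5C against siSIRT6 and serves as an alternative for siKDM5C against control. The authors deposited 1 FPKM table per library. Trimmomatic, HISAT2, Cufflinks, HTSeq and hg38 are named in the submitters' processing notes, without versions or roles. The sources used here give neither the annotation nor the strand setting. Because FPKM are not counts, log2(FPKM + 1) was fitted with limma 3.58.1 in R 4.3.3 (trended variance, Benjamini-Hochberg adjustment over all genes tested, threshold 0.05), for genes reaching 1 FPKM in 3 or more libraries. Depth was taken from the commonest smallest FPKM step of each library. With it, FPKM gave whole reads within a tolerance of 0.01 for 99.997% of genes, all but 1. For 58.93% of genes this held at the annotated exon length. For the others a length was searched at which all values came out whole. These reads gave the mitochondrial share and the library sizes of the simulated data, and entered no reported test. Without molecular identifiers, reads are not independent molecules. At these depths 3 reads of a gene of 1 kb correspond to between 0.129 and 0.165 FPKM in the 6 libraries. The procedure was tested on simulated data in which few genes changed and libraries were drawn independently. In the real comparison 44.7% of genes were called, so the simulation gives no error rate for it.

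Named genes were the targets; up to 8 members per list with the smallest adjusted p and up to 3 called against the list's main direction; up to 4 per context list; the 15 highest rises and 15 largest falls, and the 10 each way that differed most from both control and siSIRT6, among protein-coding genes with a mean of at least 5 FPKM in a group. The members and lists were chosen with earlier results of these data known. Gene positions are from GENCODE (GRCh38), and promoters from RefSeq (GRCh38.p14, first listed start per gene). Alternatives were another pseudocount, filters, scaling between libraries, all 9 libraries, no trend, a replicate block, and each library left out. A few members of these lists are counted but not reported here by name.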

Additional observations from a re-analysis of the deposited data

How the results depend on the processing

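No named gene past the threshold changed direction under the 13 alternatives. With at least 5 FPKM in 3 libraries, where 9127 genes were tested, 4547 changed, 2293 rose and 2254 fell. Of 68 S phase genes tested there, 21 rose and 16 fell. Leaving out 1 library at a time gave 4763 to 6693 changed genes, 2600 to 3193 rises and 2157 to 3500 falls, the low falls being those without control replicate 1 (2163) and control replicate 2 (2157). It gave 25 to 33 fallen interferon-stimulated genes, 12 to 14 fallen cholesterol synthesis genes, 22 to 30 risen S phase genes, 67 to 76 changed secreted factor genes and 4820 to 6873 genes differing from siSIRT6. The replicate numbers did not pair the samples (deviations of same-numbered libraries correlated at -0.25, 0.25 and -0.05), and with the number as a replicate block 6572 genes changed, 3273 rising and 3299 falling, and the calls of IL10RB (adjusted p = 0.0552) and PROCR (0.0507) were lost. The other scaling gave 3635 rises and 3400 falls. Of 210 named genes past the threshold, 194 kept the call in every alternative that tested them. The 3 libraries per group limit the precision, and changes of genes near 1 FPKM rest on few reads. A planned fit of the recovered reads (limma-voom) is not reported here.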

Other observations

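NF-kB, a transcription factor family of inflammation, had 21 listed components and targets, all tested. Of these, 17 fell (81.0%, against 22.1% of all genes), 1 rose (4.76%, against 22.6%) and 3 did not pass, with a median log2 change of -0.67. ICAM1, an adhesion molecule for leukocytes, was at 644, 639 and 616 FPKM in the controls and 96.3, 102 and 108 FPKM after siKDM5C (log2 change -2.62, adjusted p = 1.06e-05). TNFAIP3, a feedback inhibitor of the pathway, fell from 8.68, 9.46 and 8.75 to 2.74, 2.56 and 2.85 FPKM (log2 change -1.42, adjusted p = 5.31e-05), and TNFAIP2 from 276, 280.5 and 267 to 41.8, 45.1 and 49.95 FPKM (log2 change -2.57, adjusted p = 1.53e-05). RIPK2, chosen after its values were seen, was the gene that rose, from 12.4, 11.9 and 12.6 to 15.4, 17.3 and 15.7 FPKM (log2 change 0.37, adjusted p = 0.00596). Against siSIRT6, 5 of the 21 were lower after siKDM5C (against 18.6% of all genes) and 3 higher (against 21.3%).

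Of 18 enzymes and cofactors of H3K4 methylation, 17 were tested, with 6 falls (35.3%, against 22.1% of all genes), KDM5C among them, 1 rise (5.88%, against 22.6%) and 10 not passed (median -0.11). The rise was that of SETD1A, a methyltransferase named after its values were seen, and no rise was called without control replicate 1 or 2 or siKDM5C replicate 1 or 3. KDM1B, another H3K4 demethylase, fell from 13.6, 14.02 and 12.3 to 8.28, 9.45 and 8.32 FPKM (log2 change -0.56, adjusted p = 0.00216). Of 24 germline genes, 19 had a value and 1 was tested, SYCP2, which did not pass at 3.71, 3.804 and 2.43 FPKM in the controls and 3.26, 5.31 and 3.28 FPKM after siKDM5C. Of 9 tested neuronal genes of 20 listed, 3 rose (33.3%, against 22.6% of all genes), 2 fell (22.2%, against 22.1%) and 4 did not pass. None was higher than after siSIRT6 (against 21.3% of all genes), and 6 were lower (against 18.6%). Falls numbered 1 without control replicate 1, 2 or 3 or siKDM5C replicate 3. CHGB, a granin that reached 1 FPKM after siKDM5C alone, rose from 0.717, 0.648 and 0.783 to 1.19, 1.45 and 1.41 FPKM (log2 change 0.45, adjusted p = 0.00551). Without CHGB, 2 of 8 neuronal genes rose and 2 fell.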
